A study of Mus musculus with 4 samples.

Results

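The opioid genes described here are 6 of the 31053 genes in a count matrix of single mouse nuclei: the precursor genes Penk (preproenkephalin) and Pnoc (prepronociceptin), and the receptor genes Oprm1 (mu), Oprd1 (delta), Oprk1 (kappa) and Oprl1 (nociceptin receptor). They were chosen by name, and all 6 were found. The nuclei came from the mediobasal hypothalamus of wild-type mice fed chow freely and given insulin (2 libraries) or saline (2 libraries). The labels give no dose, route, time after treatment, age or strain, and do not say whether a library holds 1 mouse or several. Each p-value measures the spread between these libraries only. The 2 libraries of a treatment differed in sex by their Xist levels, given with the runs below, so they held different mice. Each treatment had 1 library in each of 2 sequencing runs given in the deposited table of nuclei, called run A and run B below, and pairs of library values are in that order.

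Enkephalins and nociceptin are short peptides cut out of longer precursor proteins by prohormone convertases. Their receptors couple to inhibitory G proteins, which lower adenylyl cyclase activity, open potassium channels and hold back calcium channels. Enkephalins act mainly at the delta and mu receptors, dynorphins at the kappa receptor and nociceptin at its own receptor, and in the hypothalamus these peptides are known for effects on feeding, reproduction and the release of pituitary hormones.

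The coding stretches of the peptides are shown because they are what the precursor transcripts deliver. They were read from the GENCODE M21 transcripts (GRCm38), 5′ to 3′, with the 4 codons of the shared core in capitals. Penk holds 7 such stretches. In 6 of them the codon after the core is the one for methionine (Met-enkephalin and its longer forms), and in 1 it is the one for leucine (Leu-enkephalin). Each core of Penk starts with a tyrosine codon, whereas that of Pnoc starts with a phenylalanine codon. The Penk stretches are shown up to the next pair of codons for lysine or arginine, except copy 7, which runs to the stop codon. The Pnoc stretch, which holds such pairs itself, is shown up to the next lysine codon followed by an arginine codon.
Penk, copy 1: TACGGAGGCTTCatg
Penk, copy 3: TATGGCGGCTTCatg
Penk, copy 4 (8 codons): TATGGGGGCTTCatgagaagcctc
Penk, copy 6 (leucine): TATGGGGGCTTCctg
Penk, copy 7 (7 codons): TACGGGGGCTTTatgcggttc
Pnoc (17 codons): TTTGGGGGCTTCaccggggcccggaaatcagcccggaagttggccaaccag

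In that annotation Penk lies on chromosome 4 from 4133531 to 4138819 (minus strand), Pnoc on chromosome 14 from 65400673 to 65425472 (minus), Oprm1 on chromosome 10 from 6758506 to 7038198 (plus), Oprd1 on chromosome 4 from 132110726 to 132144486 (minus), Oprk1 on chromosome 1 from 5588466 to 5606131 (plus) and Oprl1 on chromosome 2 from 181715016 to 181720985 (plus). Of these, Penk overlaps A830012C17Rik on the other strand, and Oprm1 overlaps Gm10945 and Ipcef1 on the other strand. Whether the counting used the strand is not given in the sources used here.

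The 4 libraries held 8352 to 9796 annotated nuclei and 63590421 to 71391593 unique molecular identifiers (UMIs, 1 per captured transcript), 36523 nuclei in all, of which 23261 were neurons. Levels are CPM, the gene's share of all UMIs of the nuclei named on the usual CPM scale, as mean ± SD over the 4 libraries, unless UMIs per 100 nuclei are stated. Cell types and neuron populations are those of the authors' deposited annotation, which was made from the same counts, so levels across them are a description with no test. Neighbours in an order are said to overlap where their ranges over 4 libraries overlap. In 35 of 37 neuron populations every library had at least 10 nuclei, and the other 2 (M2.Hdc and M13.Irx5) were not used. Barcode sequences shared by libraries numbered 318. The type annotated Endothelial had the highest level of 0 of 4 endothelial markers (Cldn5 1.69 CPM, against 538 CPM in the type annotated Mural Cell) and a high Col23a1 level (2423 CPM), so both names are used only as labels. Agrp, a transcript known from arcuate neurons, was at 111 CPM in neurons and at 43.2 to 100.7 CPM in the 7 other types, so a neuronal transcript was counted in every type.

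Penk was not higher in neurons than in other cells in CPM. In neurons it was at 17.4 and 20.3 CPM in the Insulin libraries and at 8.44 and 17.2 CPM in the Saline libraries (15.8 ± 5.11 CPM). The type annotated Endothelial had 25.8 ± 11.4 CPM, the type annotated Mural Cell 23.3 ± 10.8 CPM, microglia 22.1 ± 10.1 CPM, oligodendrocytes 21.1 ± 6.83 CPM, astrocytes 15.2 ± 4.28 CPM, ependymal cells 14.7 ± 6.205 CPM and oligodendrocyte precursors (OPC) 13.05 ± 3.37 CPM. Put in order of level, each of the 8 types overlapped its neighbour. When each nucleus was thinned to 1000 UMIs, Penk was found in 1.49 ± 0.48% of neurons, 1.40 ± 0.39% of astrocytes and 2.52 ± 1.14% of oligodendrocytes, and without thinning in 9.55% of neurons (median 8445 UMIs) and 4.87% of astrocytes (median 3148 UMIs). At equal depth the share in neurons was lower than in oligodendrocytes in 4 of 4 libraries and higher than in astrocytes in 3 of 4, with overlapping ranges. A level of neurons as a whole beyond that of glia was not detectable in this way, and populations were compared with astrocytes and oligodendrocytes below.

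Of 35 populations, 9 lay above astrocytes and oligodendrocytes, a comparison chosen after the data were seen. In every library these 9 had more Penk UMIs per 100 nuclei than any library of those types, whose range was 2.83 to 7.44 per 100 nuclei. OPC, microglia and the other types were not part of that comparison. Neurons held more UMIs per nucleus than glia, and in CPM 1 of 35 populations, M19.Ddc, lay above astrocytes and oligodendrocytes in the same sense. Of the 9, the 5 with the highest mean per nucleus were M19.Ddc, M15.Nts, M23.Sim1|Pou3f2, M17.GABA and M10.Sim1|Trh. The highest was M19.Ddc, a GABA population named for dopa decarboxylase, with 52.2 and 51.9 Penk UMIs per 100 nuclei in the Insulin libraries and 30.2 and 65.9 in the Saline libraries. In CPM, M19.Ddc had 47.3 and 59.8 in the Insulin libraries and 27.6 and 59.2 in the Saline libraries (48.5 ± 15.1 CPM). It carried the vesicular GABA transporter Slc32a1 at 73.8 CPM and the vesicular glutamate transporter Slc17a6 at 9.62 CPM. Thinned to 3000 UMIs, 8.58 ± 1.74% of M19.Ddc nuclei held a Penk UMI, and 18.02% did without thinning.

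After M19.Ddc came M17.GABA at 29.4 ± 10.9 CPM, M1.GABA at 29.3 ± 22.7 CPM, M23.Sim1|Pou3f2, a glutamatergic population, at 25.3 ± 8.08 CPM, and M27.Trh at 24.8 ± 30.4 CPM. The value of M1.GABA rested on 9 UMIs in 168 shallow nuclei (median 1336.5 UMIs), and per 100 nuclei it ranked 34 of 35. In M27.Trh the libraries were far apart, 20.2 and 69.0 CPM in the Insulin libraries against 3.76 and 6.03 CPM in the Saline libraries. The lowest was M3.Pmch at 4.53 ± 8.04 CPM, with 7 UMIs. Each of the 5 highest overlapped the next in the order. The 5 populations with the most Penk UMIs held 46.7% of all neuronal Penk UMIs and 29.2% of the neurons.

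Pnoc differed little between cell types and more between neuron populations. In neurons it was at 10.1 and 13.2 CPM in the Insulin libraries and 6.91 and 11.9 CPM in the Saline libraries (10.5 ± 2.72 CPM). Ependymal cells had 15.8 ± 13.1 CPM from 16 UMIs, oligodendrocytes 12.2 ± 4.48 CPM, the type annotated Mural Cell 10.9 ± 4.53 CPM, the type annotated Endothelial 9.01 ± 4.15 CPM, astrocytes 8.40 ± 4.12 CPM, microglia 6.29 ± 4.29 CPM and OPC 5.52 ± 1.53 CPM. Neighbours overlapped throughout. Thinned to 1000 UMIs, 1.19 ± 0.39% of neurons and 1.54 ± 0.76% of oligodendrocytes held a Pnoc UMI.

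In the same comparison, 15 of 35 populations lay above astrocytes and oligodendrocytes, which had 0.799 to 4.65 Pnoc UMIs per 100 nuclei. In CPM 2 of 35 did, M36.Sst/Pnoc and M16.Npsr1. The highest was M36.Sst/Pnoc, which the authors named for this gene, with 43.7 and 63.5 CPM in the Insulin libraries and 18.5 and 44.5 CPM in the Saline libraries (42.6 ± 18.5 CPM). M37.Tbx19 followed at 36.7 ± 16.3 CPM, then M16.Npsr1 at 30.1 ± 15.6 CPM, M1.GABA at 29.0 ± 27.1 CPM from 7 UMIs, and M19.Ddc at 20.5 ± 7.07 CPM. All 5 overlapped the next in the order. The lowest was M8.Nr5a1, the ventromedial population marked by steroidogenic factor 1, at 3.17 ± 0.85 CPM, and its highest library had 4.11 CPM.

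**Figure D1:**
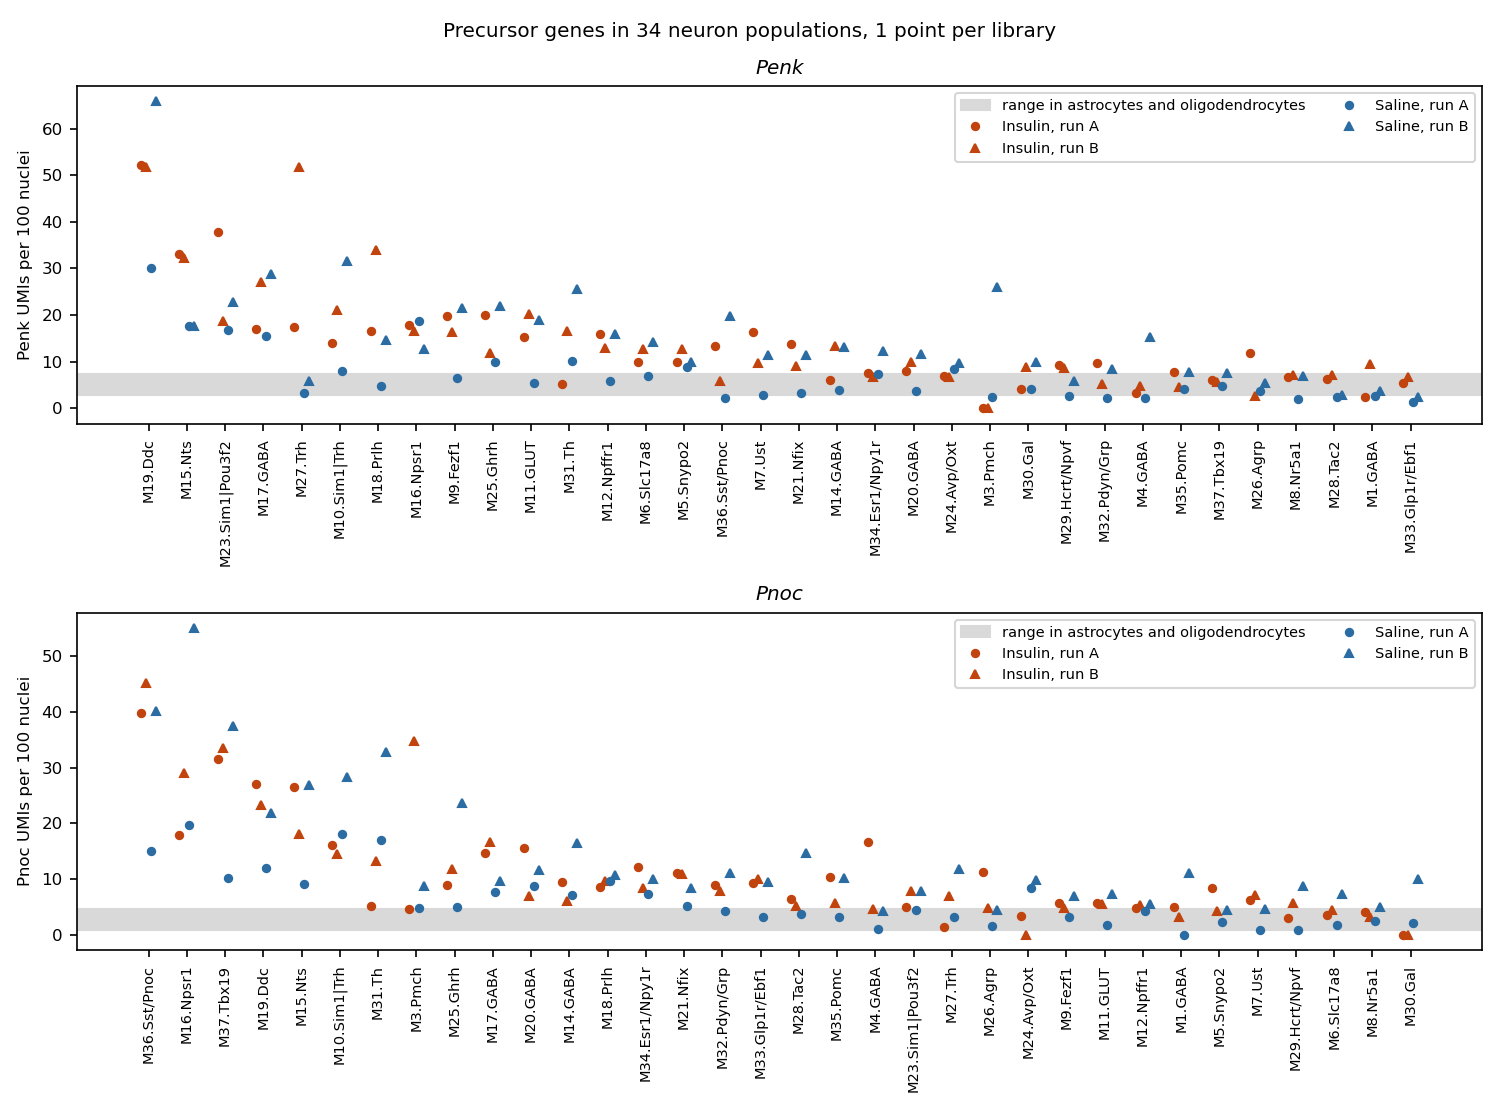
Penk (top) and Pnoc (bottom) UMIs per 100 nuclei in 34 neuron populations, ordered by their mean, with 1 point per library (Insulin red, Saline blue, circle run A, triangle run B); the grey band is the range over astrocytes and oligodendrocytes, 2.83 to 7.44 for Penk and 0.799 to 4.65 for Pnoc. M19.Ddc stands highest for Penk and M36.Sst/Pnoc for Pnoc, and the circle of the Saline library of run A is often the lowest point.

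The Saline library of run A stood apart for both precursors. It was the lowest of the 4 libraries for Penk in 6 of 8 cell types and 23 of 35 populations, for Pnoc in 7 of 8 and 24 of 35, and for Oprl1 in 5 of 8 and 20 of 35. It was the lowest for Oprm1 in 3 of 35 populations, for Oprd1 in 5 and for Oprk1 in 9. In astrocytes and oligodendrocytes together Penk was at 20.8 and 18.5 CPM in the Insulin libraries and 10.4 and 18.1 CPM in the Saline libraries, and Pnoc at 10.0 and 11.7 CPM in the Insulin libraries and 3.52 and 12.9 CPM in the Saline libraries. Other transcripts were low in it as well. Pcsk1n, an inhibitor of prohormone convertase, was in neurons at 391 and 495 CPM in the Insulin libraries and 166 and 493 CPM in the Saline libraries, and Pomc in those glia at 44.1 and 45.4 CPM in the Insulin libraries and 18.9 and 97.3 CPM in the Saline libraries. Agrp in glia was not low there, at 60.8 and 74.8 CPM in the Insulin libraries and 74.4 and 63.2 CPM in the Saline libraries. Mitochondrial transcripts made up 0.00671 and 0.00789% of neuronal UMIs in the Insulin libraries and 0.00462 and 0.0059% in the Saline libraries. The part of these differences in the precursor values was not tested. Without that library M19.Ddc had 55.4 CPM of Penk and M36.Sst/Pnoc 50.6 CPM of Pnoc, and both were still the highest populations.

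Among the receptors, Oprm1 was high in neurons and in microglia and low elsewhere. In neurons it was at 108 and 97.5 CPM in the Insulin libraries and at 118 and 99.8 CPM in the Saline libraries (106 ± 9.28 CPM). In microglia it was at 199 and 119 CPM in the Insulin libraries and 120.2 and 97.2 CPM in the Saline libraries (134 ± 44.9 CPM), which overlaps neurons. All other types were below every neuron and microglia library: the type annotated Mural Cell at 19.7 ± 17.8 CPM, OPC at 19.3 ± 15.1 CPM, ependymal cells at 15.6 ± 14.5 CPM, oligodendrocytes at 6.88 ± 2.30 CPM, the type annotated Endothelial at 5.94 ± 2.37 CPM and astrocytes at 5.86 ± 1.05 CPM. Per 100 nuclei neurons had 102 ± 15.1 Oprm1 UMIs and microglia 57.2 ± 6.996.

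The microglial value was looked at by depth, because nuclei annotated as microglia also held neuronal transcripts, with the synaptic gene Syt1 at 808 CPM against 1876 CPM in neurons. The division at 4000 UMIs was chosen after the values were seen. In the 342 microglial nuclei under 4000 UMIs, Syt1 was at 116 CPM, near its 77.7 CPM in astrocytes and 102 CPM in oligodendrocytes of that depth, and Csf1r, the receptor for colony stimulating factor 1 that marks microglia, was at 775 CPM. Oprm1 in these nuclei was at 225 and 72.3 CPM in the Insulin libraries and at 215 and 168 CPM in the Saline libraries (170.0 ± 69.7 CPM, 123 UMIs, found in 25.7% of nuclei). In astrocytes of that depth Oprm1 was at 6.48 ± 2.33 CPM and in oligodendrocytes at 6.86 ± 2.79 CPM. Oprm1 had 145 UMIs per 100 Syt1 UMIs in the shallow microglial nuclei, against 8.29 in such astrocytes and 5.65 in neurons of 4000 UMIs or more. In the 100 microglial nuclei of 4000 UMIs or more, Syt1 was at 1291 CPM, Csf1r at 151 CPM and Oprm1 at 109 ± 37.9 CPM, with 8.11 Oprm1 UMIs per 100 Syt1 UMIs.

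**Figure D2:**
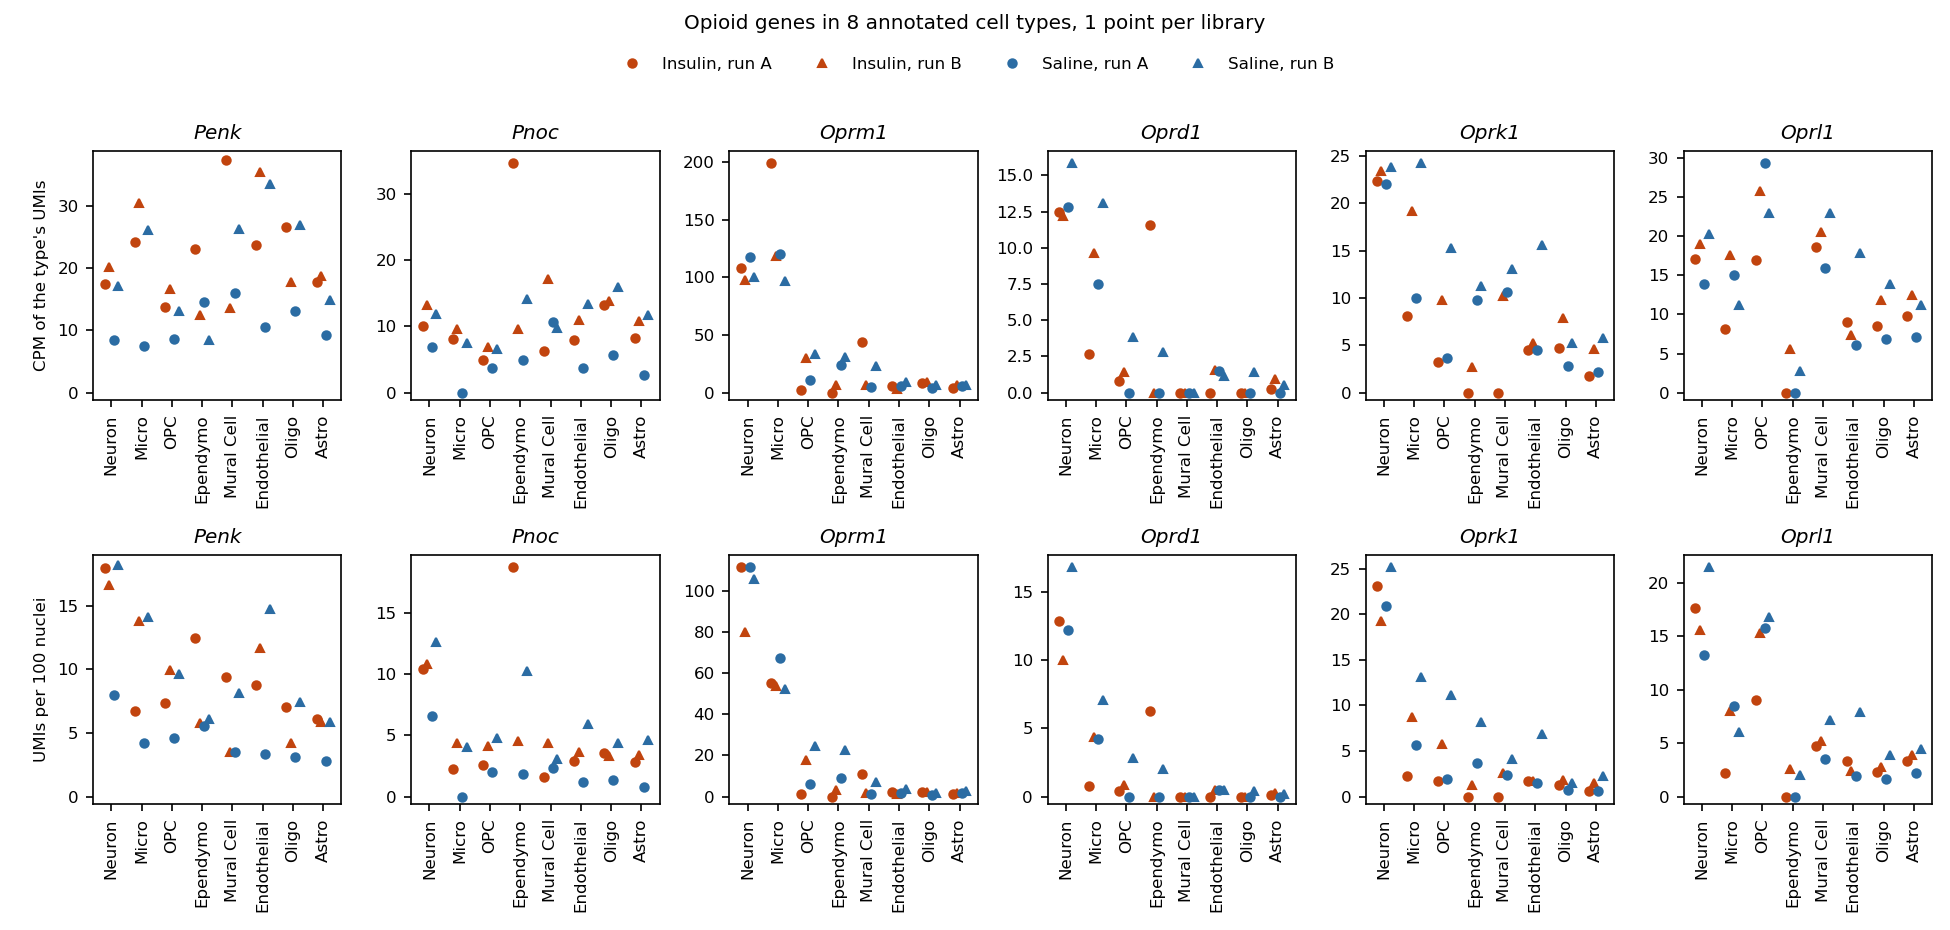
The 6 genes in the 8 annotated cell types, as CPM (top row) and as UMIs per 100 nuclei (bottom row), with 1 point per library (Insulin red, Saline blue, circle run A, triangle run B). Oprm1 is high in neurons and microglia (Micro), Oprd1 is highest in neurons, and the Penk mean of neurons is the highest per nucleus (15.2 UMIs per 100 nuclei) but not in CPM.

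Among neuron populations Oprm1 was highest in M35.Pomc, the neurons that make the precursor of the opioid beta-endorphin. They had 248 and 285 CPM in the Insulin libraries and 323 and 268 CPM in the Saline libraries (281 ± 31.9 CPM). M4.GABA had 238 ± 40.8 CPM, M27.Trh 231 ± 96.8 CPM, M10.Sim1|Trh 191 ± 57.9 CPM and M5.Snypo2 166 ± 9.28 CPM, each overlapping the next. With CPM scaled by TMM factors the first 2 changed places, M4.GABA at 267 CPM and M35.Pomc at 265 CPM. Thinned to 3000 UMIs, an Oprm1 UMI was found in 48.7 ± 5.88% of M35.Pomc nuclei and 48.3 ± 8.95% of M4.GABA nuclei. The lowest was M8.Nr5a1, with 19.9 and 20.5 CPM in the Insulin libraries and 20.9 and 17.5 CPM in the Saline libraries (19.7 ± 1.54 CPM), below all 4 libraries of M35.Pomc. In UMIs per 100 nuclei all 35 populations were above astrocytes and oligodendrocytes, whose range was 0.956 to 2.71. Microglia were not part of that comparison.

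Ipcef1 was the gene whose pattern over 35 populations was most like that of Oprm1, with Pearson r = 0.96 on log2(CPM + 1). It lies on the minus strand of chromosome 10 from 6885796 to 7052478 and covers 54.5% of the Oprm1 gene. Neurons had 30.7 ± 2.59 CPM of Ipcef1, or 0.29 Ipcef1 UMIs per Oprm1 UMI, with a range over populations of 0.198 to 0.38. Microglia had 100.9 ± 40.4 CPM, or 0.77 per Oprm1 UMI. Over the libraries together, Ipcef1 was at 189 CPM in the microglial nuclei under 4000 UMIs, where Oprm1 averaged 170.0 CPM, and at 43.5 CPM in those of 4000 UMIs or more, where Oprm1 averaged 109 CPM. In the stretch where the genes overlap, their reads cannot be told apart unless the counting used the strand, so the Oprm1 values where both are high are uncertain to that extent.

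**Figure D3:**
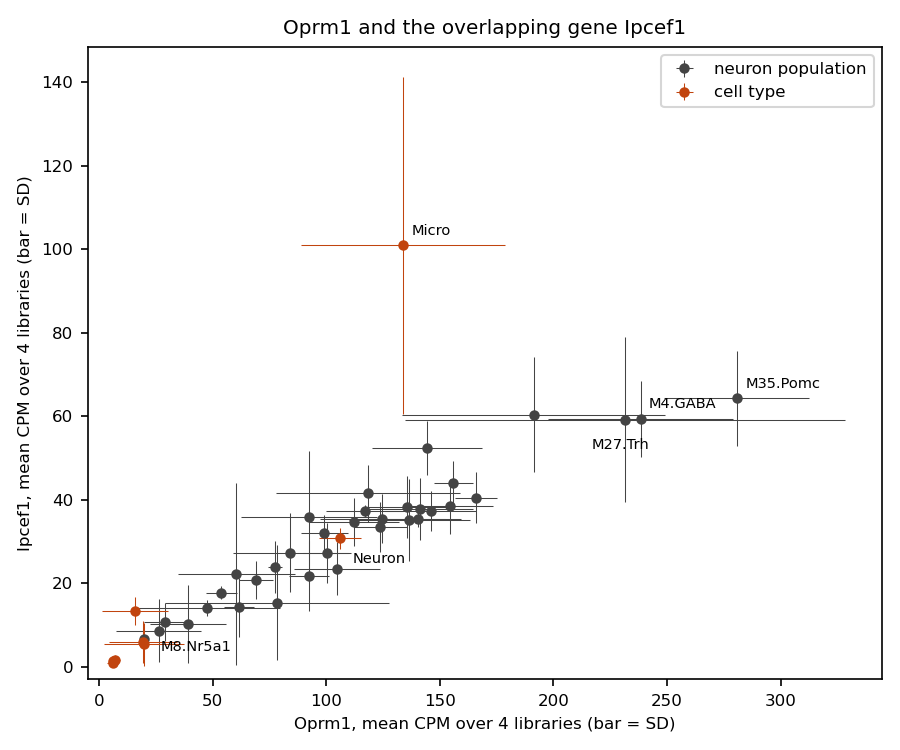
Mean CPM of Oprm1 (x axis) against mean CPM of the overlapping gene Ipcef1 (y axis), with bars of 1 SD over 4 libraries, for 35 neuron populations (grey) and 8 cell types (red). Neuron populations lie along 1 band at 0.198 to 0.38 Ipcef1 UMIs per Oprm1 UMI, and microglia (Micro) lie above it at 0.77.

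Oprd1, the delta receptor at which enkephalins act, had the highest level in neurons relative to the mean of the other types, a ratio of 6.16, where Oprm1 had 3.58, Oprk1 2.96 and Oprl1 1.38. Neurons had 12.5 and 12.2 CPM in the Insulin libraries and 12.8 and 15.9 CPM in the Saline libraries (13.3 ± 1.71 CPM), with microglia at 8.22 ± 4.34 CPM from 17 UMIs. Ependymal cells had 3.60 ± 5.48 CPM from 2 UMIs, OPC 1.51 ± 1.65 CPM, the type annotated Endothelial 1.05 ± 0.727 CPM, astrocytes 0.425 ± 0.398 CPM and oligodendrocytes 0.361 ± 0.721 CPM. The type annotated Mural Cell had 0 UMIs among 946680, which allows up to 3.17 CPM. The neuronal transcript Syt1 was at 808 CPM in microglia, 403 CPM in OPC and 277 CPM in the type annotated Mural Cell, against 73.4 CPM in astrocytes. Only Oprm1 was divided by depth, so the part of neuronal transcripts in the values of the other genes was not tested. Thinned to 1000 UMIs, 1.16 ± 0.24% of neurons and 0.039 ± 0.045% of astrocytes held an Oprd1 UMI.

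M33.Glp1r/Ebf1, named for the receptor of glucagon-like peptide 1, had the highest Oprd1, with 35.1 and 41.6 CPM in the Insulin libraries and 55.2 and 56.1 CPM in the Saline libraries (47.0 ± 10.3 CPM). M20.GABA had 31.7 ± 4.95 CPM, M8.Nr5a1 28.2 ± 1.88 CPM, M9.Fezf1 22.4 ± 0.80 CPM and M37.Tbx19 21.3 ± 6.81 CPM. In this order only M8.Nr5a1 and M9.Fezf1 did not overlap: the lowest library of M8.Nr5a1 had 25.6 CPM and the highest of M9.Fezf1 23.3 CPM. In UMIs per 100 nuclei M8.Nr5a1 (32.9 ± 5.38) and M33.Glp1r/Ebf1 (32.7 ± 7.47) were level. M8.Nr5a1, the third population for Oprd1, was the lowest for Oprm1 and Pnoc. M3.Pmch, the neurons of melanin-concentrating hormone, had 0 Oprd1 UMIs among 1631929, which allows up to 1.84 CPM.

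Oprk1, the kappa receptor for dynorphins, varied little between libraries in neurons. It was at 22.3 and 23.4 CPM in the Insulin libraries and at 22.04 and 23.8 CPM in the Saline libraries (22.9 ± 0.84 CPM). Microglia had 15.4 ± 7.67 CPM, the type annotated Mural Cell 8.50 ± 5.80 CPM, OPC 7.996 ± 5.71 CPM, the type annotated Endothelial 7.47 ± 5.44 CPM, ependymal cells 5.95 ± 5.43 CPM, oligodendrocytes 5.20 ± 2.10 CPM and astrocytes 3.57 ± 1.97 CPM. Neighbours overlapped in this order.

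Among populations Oprk1 was highest in M28.Tac2, the neurokinin B neurons, with 115 and 48.3 CPM in the Insulin libraries and 76.6 and 80.0 CPM in the Saline libraries (80.0 ± 27.4 CPM). M30.Gal, named for galanin, had 72.7 ± 10.8 CPM, M4.GABA 66.6 ± 18.4 CPM, M24.Avp/Oxt, the neurons of vasopressin and oxytocin, 52.1 ± 17.7 CPM, and M29.Hcrt/Npvf, named for hypocretin, 50.9 ± 16.1 CPM, each overlapping the next. Without the Insulin library of run A, M30.Gal was the highest at 69.9 CPM and M28.Tac2 had 68.3 CPM. Thinned to 3000 UMIs, 24.9 ± 5.97% of M30.Gal nuclei and 18.9 ± 6.81% of M28.Tac2 nuclei held an Oprk1 UMI. The lowest was M25.Ghrh, the neurons of growth hormone releasing hormone, at 5.22 ± 5.65 CPM. Pdyn, the dynorphin precursor, was at 31.5 CPM in M28.Tac2, 24.6 CPM in M24.Avp/Oxt, 25.2 CPM in M29.Hcrt/Npvf, 5.92 CPM in M4.GABA and 3.92 CPM in M30.Gal.

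Oprl1, the nociceptin receptor, was at overlapping levels in neurons, OPC and the type annotated Mural Cell. Neurons had 17.1 and 18.98 CPM in the Insulin libraries and 13.9 and 20.3 CPM in the Saline libraries (17.6 ± 2.76 CPM). OPC had 23.8 ± 5.23 CPM and the type annotated Mural Cell 19.5 ± 2.96 CPM, with microglia at 12.98 ± 4.19 CPM, oligodendrocytes at 10.3 ± 3.22 CPM, astrocytes at 10.2 ± 2.31 CPM, the type annotated Endothelial at 10.1 ± 5.34 CPM and ependymal cells at 2.08 ± 2.65 CPM. Ependymal cells did not overlap the type before them. Thinned to 1000 UMIs, an Oprl1 UMI was found in 2.33 ± 0.77% of OPC, 1.87 ± 0.41% of neurons and 1.06 ± 0.13% of astrocytes.

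The highest Oprl1 level among populations, 71.2 ± 11.5 CPM in M1.GABA, rested on 19 UMIs in shallow nuclei, and per 100 nuclei that population ranked 32 of 35. Next came M28.Tac2 at 25.2 ± 9.49 CPM, M6.Slc17a8, named for a vesicular glutamate transporter, at 25.2 ± 4.58 CPM, M11.GLUT at 24.6 ± 4.60 CPM and M33.Glp1r/Ebf1 at 24.4 ± 6.78 CPM, which all overlapped. Per 100 nuclei M11.GLUT was the highest, with 32.3 and 30.5 Oprl1 UMIs in the Insulin libraries and 22.3 and 32.3 in the Saline libraries. The lowest in CPM was M4.GABA at 10.96 ± 7.52 CPM.

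**Figure D4:**
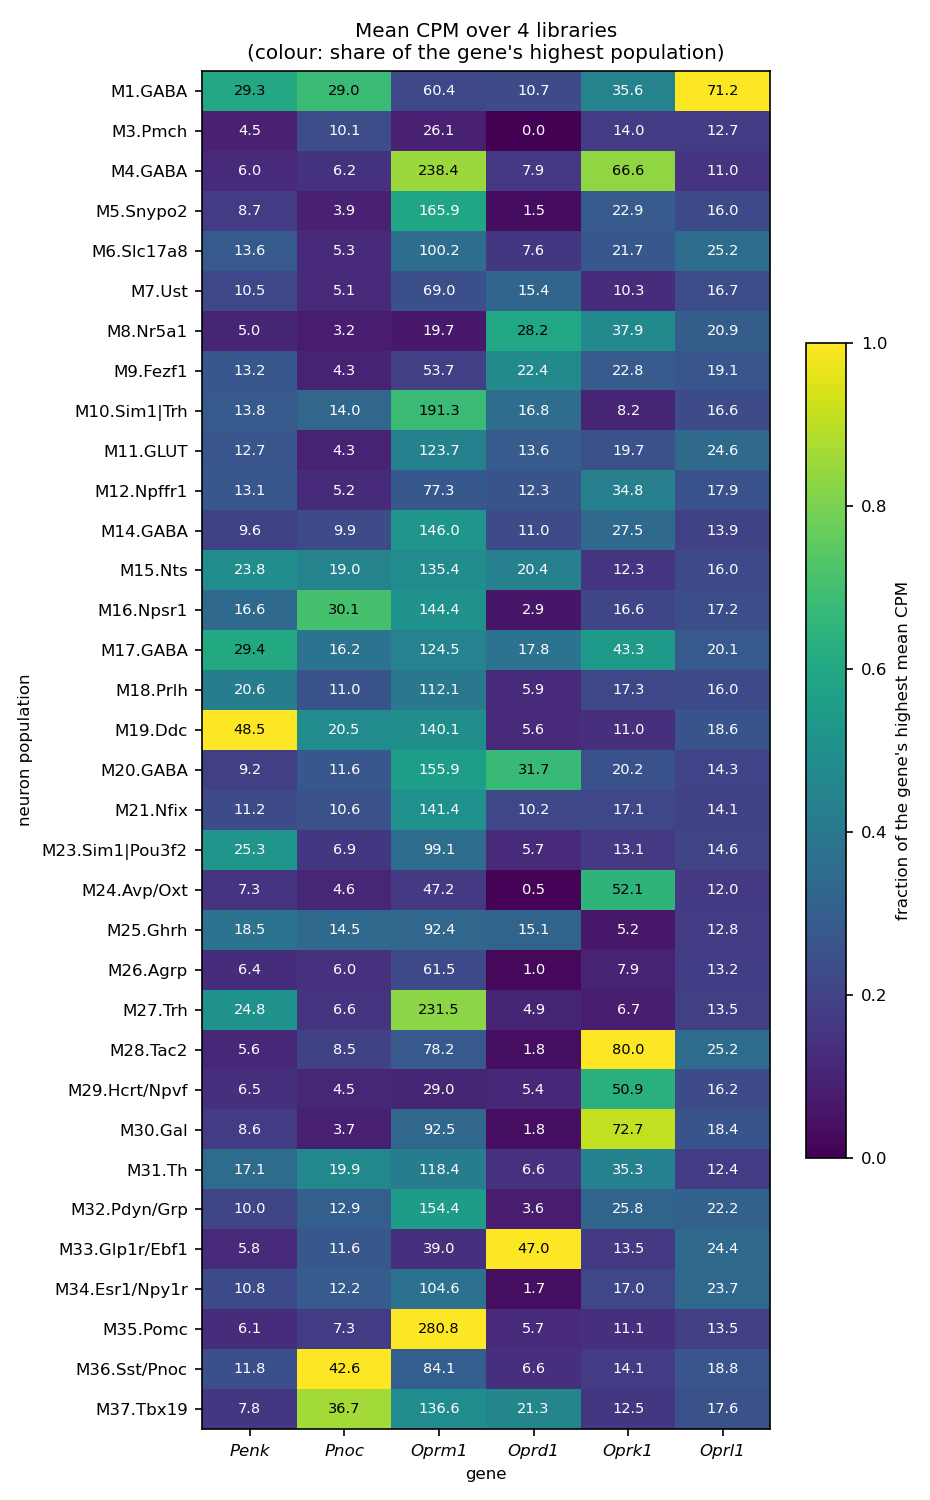
Mean CPM over 4 libraries of each gene (columns) in each of 34 neuron populations (rows), with the value printed and the colour giving its fraction of the gene's highest population. Oprm1 peaks in M35.Pomc (281 CPM), Oprd1 in M33.Glp1r/Ebf1 (47.0 CPM), Oprk1 in M28.Tac2 (80.0 CPM) and Penk in M19.Ddc (48.5 CPM).

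Patterns over populations were only weakly related between the 6 genes. Over 35 populations, on log2(CPM + 1), the largest Pearson r between 2 of the 6 genes was 0.42 for Penk with Pnoc, and Penk had r = 0.36 with Oprm1 and r = 0.20 with Oprd1. These populations share libraries and differ in depth, so the values only describe them. Pnoc had r = 0.64 with Slc32a1 and r = -0.53 with Slc17a6. M1.GABA, despite its name, had Slc17a6 at 148 CPM and Slc32a1 at 66.2 CPM. In the 15 populations with more Slc32a1 than Slc17a6 the median Pnoc level was 14.8 CPM, against 6.75 CPM in the other 20, M1.GABA among them. For Penk those medians were 11.8 CPM and 11.02 CPM, for Oprm1 125 CPM and 99.6 CPM, for Oprd1 8.08 CPM and 5.80 CPM, for Oprk1 16.6 CPM and 20.7 CPM, and for Oprl1 16.3 CPM and 16.7 CPM.

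The genes most like each member were searched among 10747 genes over the same 35 populations. For Penk they were Frrs1l (r = 0.69), Sv2a, Tmem94, Rgs10 and Fndc5 (r = 0.63). For Pnoc they were Gad1 (r = 0.68), Ash2l, Marcks, Slc32a1 and Nrxn3 (r = 0.64), of which Gad1 makes GABA and Slc32a1 loads it into vesicles. After Ipcef1, those for Oprm1 were Ank1 (r = 0.65), Rcan2, Polb and Dgkz (r = 0.59). For Oprd1 they were Slc25a23 (r = 0.67), Nmur2, Specc1, Ltbp3 and Atp2b2 (r = 0.64), for Oprk1 Prex1 (r = 0.57), Tceal8, Phf23, Fbxl6 and Naaa (r = 0.53), and for Oprl1 Coa6 (r = 0.80), Arxes2, Abhd8, Capza2 and Cnp (r = 0.78). All of these values include the shallow M1.GABA nuclei, as do the correlations between the members.

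Single neurons were thinned to 3000 UMIs to see whether precursor and receptor UMIs were found together. Among neurons with a Penk UMI, 22.5 ± 3.01% also held an Oprm1 UMI (180 nuclei), against 22.6 ± 1.75% of neurons without Penk. These ranges overlapped. For Oprd1 the shares were 2.42 ± 0.60% with Penk (19 nuclei) and 3.62 ± 0.36% without it, and the share with Penk was the lower one in 4 of 4 libraries without overlap of the ranges, a difference that was not tested and 1 of 8 pairs of genes counted in this way. Among neurons with a Pnoc UMI, 6.30 ± 1.70% held an Oprl1 UMI, against 5.36 ± 0.90% of those without Pnoc, and these ranges overlapped.

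The study's treatment comparison asks what insulin changed. In neurons 0 of the 6 genes passed edgeR's quasi-likelihood test, fitted over 20275 genes with Benjamini-Hochberg adjustment at 0.05, and 0.0% of all genes did. At an unadjusted p under 0.05 that test had 103 genes, DESeq2 74 and limma-voom 105, and neither of the other tools called a gene. Penk, with 17.4 and 20.3 CPM in the Insulin libraries and 8.44 and 17.2 CPM in the Saline libraries, had a log2 difference of 0.56 (SE 0.34, edgeR adjusted p = 1.00). Its libraries did not overlap between treatments, but the highest Saline value lay close to the lowest Insulin value, and without the Saline library of run A the difference was 0.16. Without the Saline library of run B it was 1.12 (adjusted p = 0.254). With the run as a block, Penk had a log2 difference of 0.63 (adjusted p = 0.41).

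For Pnoc the difference in neurons was 0.31 (SE 0.30), and without the Saline library of run A it was 0.0043. Oprm1 differed by -0.09 (SE 0.15) and Oprk1 by -0.01 (SE 0.13). Oprl1 differed by 0.07 (SE 0.20), and without the Saline library of run A by -0.14. Oprd1 was lower in both Insulin libraries, 12.5 and 12.2 CPM, than in both Saline libraries, 12.8 and 15.9 CPM, with a log2 difference of -0.22 (SE 0.17). Each of these had an edgeR adjusted p of 1.00. That fit had no run term, so the difference between runs was part of the spread it measured. With the run as a block the SE was 0.16 for Pnoc, 0.09 for Oprm1, 0.12 for Oprk1, 0.14 for Oprl1 and 0.15 for Oprd1. In that fit 0 of the 6 genes passed in neurons. Libraries that did not overlap were seen for 2 of the 6 genes, Penk and Oprd1, and for 20.3% of all genes tested. Of all genes, 8.74% were higher and 11.6% lower in both Insulin libraries.

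In the 7 other cell types together 19 tests of these genes were possible after the filter on low counts, 0 passed, and 0.0% of all tests there did. Penk was tested in 5 of them, Pnoc in 3, Oprm1 in 4, Oprk1 in 3, Oprl1 in 4 and Oprd1 in 0. The smallest unadjusted p was that of Penk in astrocytes, 0.0955, with 17.8 and 18.8 CPM in the Insulin libraries and 9.27 and 14.9 CPM in the Saline libraries. Both Insulin libraries were above both Saline libraries for Penk in astrocytes and OPC and for Oprm1 in oligodendrocytes, and in 15.6% of all tests there. In microglia Oprm1 had a log2 difference of 0.44 (SE 0.37, edgeR adjusted p = 0.895). Leaving out 1 library made 2 calls. Pnoc in astrocytes differed by 1.85 (adjusted p = 0.0315) without the Saline library of run B, where 846 genes were called, and Oprm1 in OPC by -3.20 (adjusted p = 0.0128) without the Insulin library of run B, where 103 genes were called.

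Across the neuron populations Penk was tested in 21 of 35, Pnoc in 19, Oprm1 in 33, Oprd1 in 17, Oprk1 in 30 and Oprl1 in 29. None of these tests passed in edgeR's fit (0.000835% of all tests over populations did, 3 in number), and an unadjusted p under 0.05 was seen 2 times for Penk, 2 for Pnoc, 4 for Oprm1, 1 for Oprk1 and 0 for Oprd1 and Oprl1. DESeq2 called 0 of them. Without the filter on low counts 2 passed, where 0.0274% of all tests did, and with the run as a block 1 passed, where 0.13% did. Both Insulin libraries were above both Saline libraries in 14.2% of all tests over populations, and in 5 of 21 for Penk, 5 of 19 for Pnoc, 3 of 33 for Oprm1, 2 of 17 for Oprd1, 7 of 30 for Oprk1 and 5 of 29 for Oprl1. They were below in 13.8% of all tests, and in 0 for Penk, 2 for Pnoc, 7 for Oprm1, 4 for Oprd1, 5 for Oprk1 and 3 for Oprl1. The populations share their 4 libraries, so these counts are not independent. Whether the insulin difference varied between populations was tested with edgeR's F test over all 35, in which 0 of the 6 genes and 0.0067% of all genes passed. The highest F was that of Pnoc (F = 2.02), followed by Penk (F = 1.51), and both had an edgeR adjusted p of 1.00.

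The population with the smallest p for Penk was M18.Prlh, glutamatergic neurons named for prolactin releasing hormone. It had 17.7 and 44.3 CPM in the Insulin libraries and 5.46 and 15.1 CPM in the Saline libraries, so each Insulin library was above both Saline libraries. The log2 difference was 1.75 (SE 0.56, unadjusted p = 0.0142, edgeR adjusted p = 0.999). With the run as a block it was 1.60 and passed (adjusted p = 0.0467), where 0.032% of genes did, 4 in number. Without the filter on low counts it also passed (log2 1.76, adjusted p = 0.00698, 0.0281% of genes called). Leaving out 1 library in turn gave 0.90 to 2.46, with none past the threshold. The lowest of these was without the Insulin library of run B, and without the Saline library of run A the difference was 1.10.

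Penk in M27.Trh did not reach the filter, under which 0.0431% of genes were called there. Without the filter its log2 difference was 3.12 (SE 0.72, edgeR adjusted p = 0.00788), where 65 of 17963 genes (0.362%) were called. Without the Saline library of run B, in a fit with the filter on that left 1 Saline library, it was 3.40. The group held 75 and 58 nuclei in the Insulin libraries and 31 and 34 in the Saline libraries, and 46 Penk UMIs in all. In its highest population, M19.Ddc, Penk differed by 0.21 (SE 0.30), and by -0.14 without the Saline library of run A.

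For Pnoc the smallest p was in M17.GABA, with 17.2 and 25.6 CPM in the Insulin libraries and 10.2 and 11.8 CPM in the Saline libraries (log2 0.96, SE 0.35, unadjusted p = 0.0255). In M36.Sst/Pnoc its log2 difference was 0.76 (SE 0.39), and 0.30 without the Saline library of run A. In that same population Oprm1 had its smallest p, with 53.8 and 75.0 CPM in the Insulin libraries and 96.0 and 112 CPM in the Saline libraries (log2 -0.70, SE 0.23, unadjusted p = 0.0129). In M35.Pomc the Oprm1 difference was -0.16 (SE 0.18) and the libraries overlapped. The adjusted p of each was 1.00 in edgeR's fit.

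The remaining receptors gave no call either. Oprd1 in M33.Glp1r/Ebf1, its highest population and that of its smallest p, was lower in the Insulin libraries without overlap (log2 -0.54, SE 0.30). Oprk1 had its smallest p in M29.Hcrt/Npvf, with 71.8 and 55.4 CPM in the Insulin libraries and 38.5 and 38.0 CPM in the Saline libraries (log2 0.70, SE 0.28, unadjusted p = 0.0304), and differed by -0.01 (SE 0.40) in M28.Tac2. Oprl1 differed by 0.59 (SE 0.50) in M28.Tac2, its highest tested population, and by -0.59 (SE 0.40) in M15.Nts, where its p was smallest. The edgeR adjusted p was 0.998 for Oprk1 in M29.Hcrt/Npvf and rounded to 0.999 or 1.00 for the others.

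**Figure D5:**
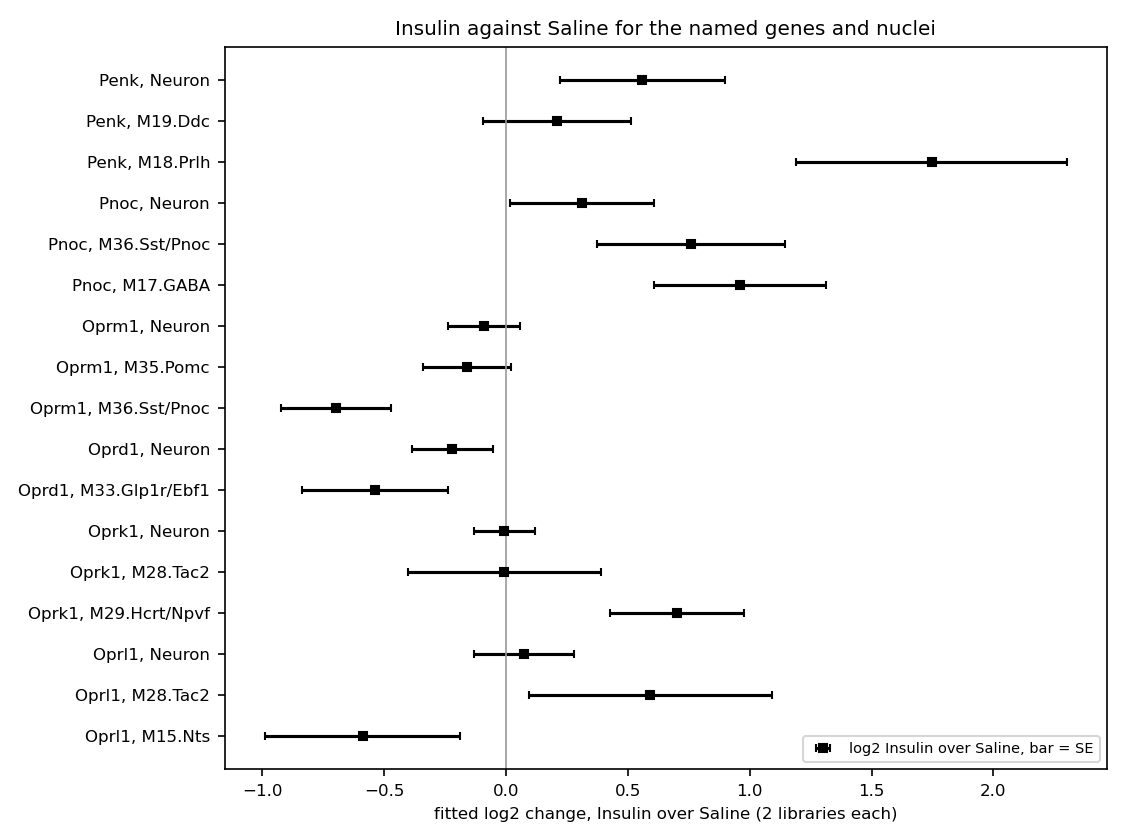
Fitted log2 differences, Insulin over Saline (2 libraries each), of the 6 genes in neurons, in the highest tested population and in the population with the smallest p, with bars of 1 SE. The largest is Penk in M18.Prlh (1.75), and in neurons the 6 values lie between -0.22 and 0.56.

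Of 36 further genes of opioid peptide processing and receptor signalling, 35 were tested in neurons. None passed in edgeR's fit, and none had an unadjusted p under 0.05. The log2 difference was above 0 for 18 and below 0 for 17, with a median of 0.02 beside 0.00 over all genes. The smallest p on the higher side was that of Rgs4, a protein that shortens G protein signals, with 8.74 and 11.9 CPM in the Insulin libraries and 7.11 and 9.11 CPM in the Saline libraries (log2 0.34, SE 0.23). On the lower side it was that of Arrb1, beta-arrestin 1, with 57.9 and 54.0 CPM in the Insulin libraries and 67.3 and 58.0 CPM in the Saline libraries (log2 -0.17, SE 0.14). In the populations these genes gave 1042 tests with 0 calls, and in the 7 other cell types 178 tests with 0 calls.

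Runs differed in sex, with Xist in neurons at 1648 and 1532 CPM in the Insulin and Saline libraries of run B and at 0.355 and 0.381 CPM in those of run A, so run and sex cannot be told apart. Between runs, 0 of the 6 genes passed in neurons, and 1.0% of 20275 genes did. With treatment as a term 0 of the 6 passed and 10.8% did (2184 genes), with adjusted p = 0.0726 for Pnoc, 0.0901 for Penk and 0.0954 for Oprm1 in edgeR's fit. Oprm1 had 97.5 and 99.8 CPM in the run B libraries, against 108 and 118 CPM in the run A libraries (log2 of run B over run A -0.25, SE 0.08, unadjusted p = 0.0176, edgeR adjusted p = 0.165). Pnoc had 13.2 and 11.9 CPM in the run B libraries, against 10.1 and 6.91 CPM in the run A libraries (log2 0.51, SE 0.21, adjusted p = 0.217). Penk (log2 0.48, SE 0.31), Oprl1 (0.29, SE 0.14), Oprd1 (0.10, SE 0.16) and Oprk1 (0.03, SE 0.10) gave no call. Without the Insulin library of run A, which leaves the Saline library as the only one of its run, its spread taken to be that of the others, Penk (1.07, adjusted p = 0.0014), Pnoc (0.78, adjusted p = 0.0069), Oprl1 (0.42, adjusted p = 0.0288) and Oprm1 (-0.33, adjusted p = 0.0141) passed, as did 5795 of 20959 genes (27.6%). Without the Saline library of run A the Penk difference was 0.05.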

How the data were processed

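Gene counts per nucleus (unique molecular identifiers) were deposited by the authors as 1 matrix with a table of cell types and neuron populations. Per the submitters' processing notes Cell Ranger and GRCm38 were used, and the gene annotation, the settings and the use of strand are not given in the sources used here. No other filter on nuclei was applied, and the 423 doublets and 1116 unassigned nuclei of the authors' annotation were left out. Counts were summed per library and cell type or population, and tested with edgeR 4.0.16 in R 4.3.3 (TMM scaling, filterByExpr, quasi-likelihood test, Benjamini-Hochberg adjustment at 0.05), after a test on simulated data. DESeq2 1.42.0, limma 3.58.1 (voom), RLE scaling, no filter, the run as a block and leaving out 1 library were alternatives. Same-run libraries deviated together (r = 0.68 over 20275 genes), which the main fit, without a run term, did not take into account. The genes and the list of 36 further genes were chosen with earlier results of these data known. Of the 35 neuron populations analysed, 1 is not reported by name here. Named were the 5 highest populations, the highest tested population, the population of smallest p and the 5 genes of most similar pattern.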

Additional observations from a re-analysis of the deposited data

Results flagged for a closer look

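Oprk1 in the type annotated Endothelial was at 15.6 CPM in the Saline library of run B, far from the other 3 libraries (4.52 and 5.22 CPM in the Insulin libraries and 4.53 CPM in the Saline library of run A). It was the only far value among 72 checked, and chance flags about 1 in 20.

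Barcodes outside the comparisons also held these transcripts, given here as CPM of all their UMIs together and not as a mean over libraries. The 4633 barcodes with no annotation had 17.0 CPM of Penk, 11.6 CPM of Pnoc, 90.6 CPM of Oprm1, 10.1 CPM of Oprd1, 19.3 CPM of Oprk1 and 16.5 CPM of Oprl1. The annotated doublets had 8.09 CPM of Penk, 8.76 CPM of Pnoc, 88.9 CPM of Oprm1, 11.1 CPM of Oprd1, 21.2 CPM of Oprk1 and 15.2 CPM of Oprl1. The 1116 unassigned nuclei were shallow, with a median of 827.5 UMIs. They had 51.3 CPM of Penk from 67 UMIs, 29.8 CPM of Pnoc from 39 and 19.9 CPM of Oprm1 from 26. Oprd1 was at 3.83 CPM from 5 UMIs, Oprk1 at 18.4 CPM from 24 and Oprl1 at 39.0 CPM from 51.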

How the results depend on the processing

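The count of the 6 genes called for insulin was 0 in neurons under every alternative run. Over the populations it was 2 without the filter on low counts and 1 with the run as a block (the pairing of libraries by run). Leaving out 1 library also made calls over populations, in the other cell types and between runs. Those fits left 1 library in a group and took its spread from the others, so the calls of the 6 genes in them are not counted here. All calls over populations numbered 3, against 467 with the block, 192 without the filter and 5 with DESeq2. Between runs, 203 of all genes were called, against 2184 with treatment as a term, 399 without the filter and 422 to 5795 with 1 library left out. Without the Saline library of run B, which left 1 Saline library, the insulin difference was 1.72 for Penk in M11.GLUT and -1.74 for Oprm1 in M24.Avp/Oxt. Oprk1 in M28.Tac2 turned to 0.023 with DESeq2 and to 0.021 with the block, and ranged from -0.68 to 0.55 with 1 library left out. Leaving out 1 library also turned the sign of insulin differences for Penk in M19.Ddc (-0.14 to 0.85) and, in neurons, for Oprm1 (-0.23 to 0.078), Oprk1 (-0.022 to 0.019) and Oprl1 (-0.14 to 0.33), and of the run difference for Oprd1 (-0.11 to 0.27). A treatment left with 1 library was assumed to vary like the other. The cause of these changes was not tested. The 36 further genes, with 0 calls over populations, had 2 in 1233 tests without the filter, where 0.0274% of all tests passed. With the block they had 6 in 1042 tests, where 0.13% of all tests passed. In the other cell types they had 0 calls without the filter and 0 with the block. Fits that left 1 library in a treatment also made calls, which are not counted here. The highest population was the same for 6 genes under the mean over nuclei, 5 under TMM scaling and 5 to 6 with 1 library left out, and, as choices made after the data were seen, for 4 in UMIs per 100 nuclei and 5 in nuclei of at least 3000 UMIs. Without thinning, 3 of 6 genes kept the population of highest detection. For Pnoc and Oprl1 the highest thinned share was that of M1.GABA, which kept only 8 nuclei at 3000 UMIs. Precursor counts per nucleus are low, which limits every comparison within a population, and intervals from 2 libraries a group are wide.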
